A study of Mus musculus with 7 samples.

Results

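The classical cell-cycle cyclins of classes A, B, D and E were examined in preleptotene-enriched mouse testes. The 10 genes *Ccna1*, *Ccna2*, *Ccnb1*, *Ccnb2*, *Ccnb3*, *Ccnd1*, *Ccnd2*, *Ccnd3*, *Ccne1* and *Ccne2* were taken by symbol from the 21928 genes in the tables, and all 10 were found. RNA was sequenced in bulk from 4 wild-type pups and from 3 pups null for *Meioc* (labelled *Meioc* KO), with 1.5 testes of 1 pup in each library. The null animals carry the *Meioc* tm1.1Dpc allele in all tissues, and both genotypes were on C57BL/6N. Both received the same synchronizing treatment: WIN 18,446, which blocks retinoic acid synthesis, at 0.1 mg/g on postnatal days 2 to 8, then retinoic acid at 0.0125 mg/g on day 9, with collection 6.75 days later. Whole testes were sequenced, so somatic cells and germ cells of other stages contributed RNA to every library.

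Cyclins are the regulatory subunits that activate cyclin-dependent kinases (CDKs). D cyclins pair with CDK4 and CDK6 as cells pass through G1, E cyclins pair with CDK2 at the entry into S phase, cyclin A2 acts with CDK2 and CDK1 through S phase and G2, and B cyclins pair with CDK1 to drive entry into M phase. Male germ cells also express members that are rare outside the germ line: *Ccna1* in late meiotic prophase and *Ccnb3* in early meiotic prophase. MEIOC is a germ cell protein that works in a complex with the proteins YTHDC2 and RBM46 as spermatogonia stop dividing by mitosis and enter meiosis. The comparison of wild type with the null therefore asks how the cyclin transcripts stand at the time of this switch when MEIOC is missing.

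The libraries held from 12537852 to 20552702 estimated counts. Counts were summed by gene and scaled by TMM, which corrects the library size for composition, to CPM, the counts of a gene at a fixed library total. The 13630 genes with at least 1 TPM (a measure of abundance per transcript length) in at least 3 of the 7 libraries entered the quasi-likelihood test of edgeR, and a gene was called where its p, adjusted by Benjamini and Hochberg's method, was under 0.05. Log2 fold changes above 0 mean more transcript in wild type than in the null. *Meioc* itself was counted at 466, 658, 662 and 718 CPM in wild-type replicates 1 to 4 and at 399, 299 and 412 CPM in *Meioc*-null replicates 1 to 3 (log2 fold change 0.76, standard error 0.16, edgeR adjusted p = 0.021). The groups did not overlap, but the null allele still gave counts on the gene, and the adjusted p rose to between 0.052 and 0.064 without any 1 of the wild-type replicates 2, 3 and 4 or the *Meioc*-null replicates 2 and 3. Wild-type replicate 1 stood nearest to the null libraries: across genes its log2 CPM correlated equally well, at 0.981, with that of wild-type replicate 2 and that of *Meioc*-null replicate 1.

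Markers of several cell types moved with genotype. The 4 markers of leptotene and zygotene spermatocytes were all called higher in wild type, and their summed level was 961 to 1239 CPM in wild type and 454 to 618 CPM in the null. The 2 general germ cell markers summed to 1232 to 1395 CPM in wild type and 836 to 971 CPM in the null. The 4 markers of differentiating spermatogonia summed to 389 to 628 CPM in wild type and 256 to 355 CPM in the null. Of these 4, only *Kit* was called (higher in wild type), and the groups overlapped for the others. *Stra8*, 1 of the 4, also served the study as its marker of preleptotene spermatocytes, so this sum is not particular to spermatogonia. It stood at 126, 148, 262 and 409 CPM in wild-type replicates 1 to 4. In *Meioc*-null replicates 1 to 3 it stood at 157, 87.3 and 77.1 CPM. The 4 markers of undifferentiated spermatogonia summed to 105 to 125 CPM in wild type and 141 to 228 CPM in the null, a sum carried by *Zbtb16*, the 1 of the 4 that was called (lower in wild type), while the groups overlapped for the others. Summed markers overlapped between the groups for pachytene and later germ cells, Sertoli cells, fetal Leydig cells, peritubular myoid cells, endothelium, macrophages and red blood cells. Of the 5 Sertoli cell markers, *Gata4* was called lower in wild type, at 65.8 to 73.2 CPM against 84.6 to 92.0 CPM. Of the 6 markers of pachytene and later germ cells, only 2 passed the TPM filter, and the spermatid gene *Prm1* had 0 counts in all 7 libraries. The part of these marker differences in the cyclin results was not tested.

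Of the 10 cyclins, 9 were tested. *Ccnb3*, *Ccne1* and *Ccne2* were called higher in wild type, *Ccnb1* was called lower, and *Ccna2*, *Ccnb2*, *Ccnd1*, *Ccnd2* and *Ccnd3* were not called. *Ccna1* was below the filter. Among all 13630 genes, 7.77% were called higher in wild type, 3.33% lower and 11.1% in either direction. The median log2 fold change of the 9 cyclins was -0.14, and that of all tested genes was -0.01. In CPM, 3 of the 9 cyclins had every wild-type library above every null library, where 15.4% of all genes did, and 2 of the 9 had every wild-type library below, where 10.8% did. DESeq2 on the same genes also called 3 cyclins higher and 1 lower, where it called 17.1% of all genes in either direction.

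**Figure D1:**
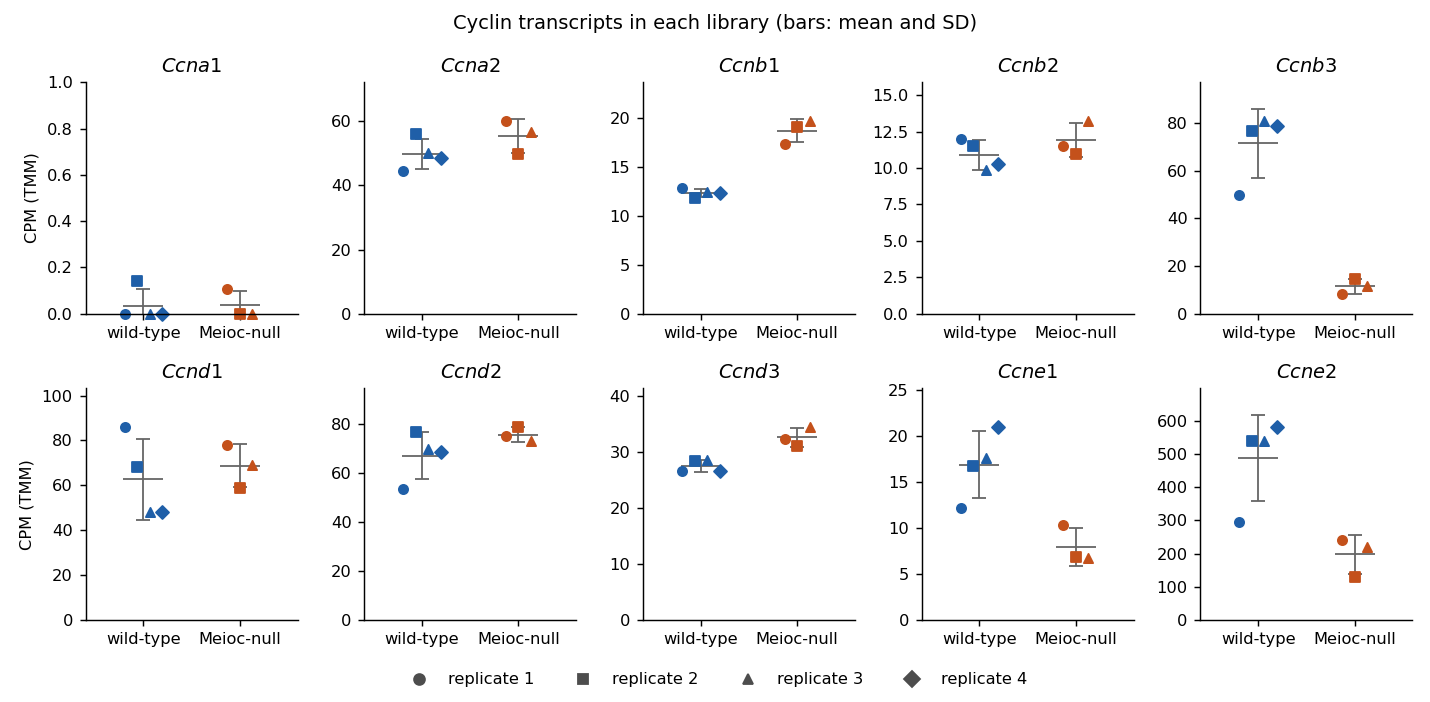
CPM (TMM-scaled, linear axis from 0, a separate axis for each gene) of the 10 cyclins in the 4 wild-type (blue) and 3 *Meioc*-null (orange) libraries, with symbols for replicate numbers and grey bars for the mean and SD. *Ccnb3*, *Ccne1* and *Ccne2* lie higher in every wild-type library, *Ccnb1* and *Ccnd3* lie lower, the other tested genes overlap, and *Ccna1* stays under 0.15 CPM.

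The calls on the small differences depended on the scale. With no scaling beyond library size, the median of all genes moved to -0.08, the calls that favoured wild type went from 70.0% to 47.5% of all calls, and 3 cyclins were called higher and 2 lower, where 5.97% of all genes were higher and 6.6% lower. In limma on log2(TPM + 1), the median of all genes was -0.23, 17.4% of all calls favoured wild type, and 3 cyclins were called higher and 4 lower, where 3.23% of all genes were higher and 15.3% lower. *Ccnb3*, *Ccne1*, *Ccne2* and *Ccnb1* were called in the same direction on all 3 scales. *Ccna2* and *Ccnd2* were called in TPM and not in counts, and *Ccnd3* in TPM and with no scaling.

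**Figure D2:**
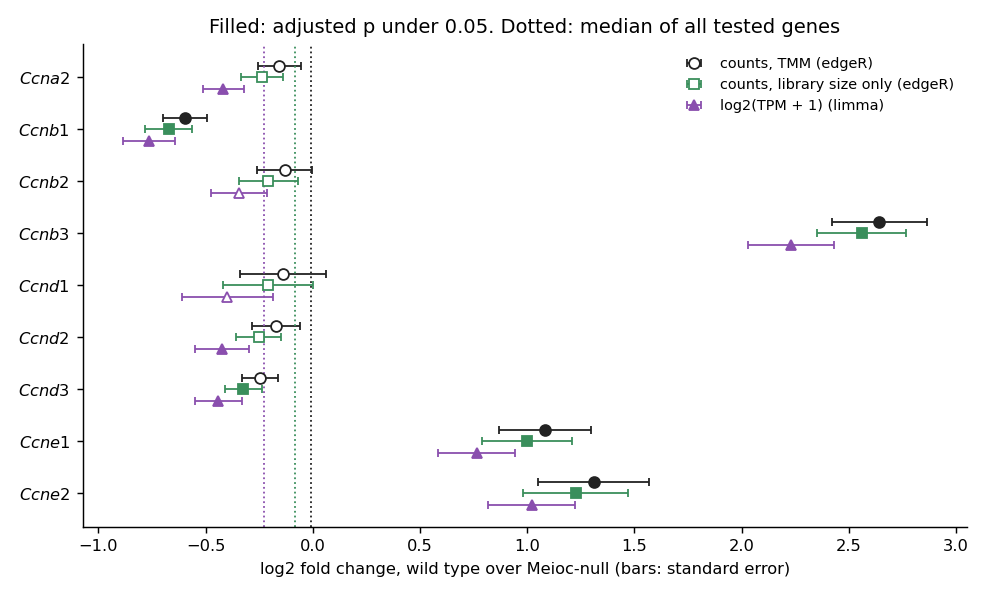
Log2 fold change (wild type over *Meioc*-null, horizontal axis) of the 9 tested cyclins, with bars for the standard error, from TMM-scaled counts (black circles), counts scaled by library size only (green squares) and log2(TPM + 1) (purple triangles). Filled symbols passed an adjusted p under 0.05, and the dotted lines mark the median of all tested genes on each scale, at -0.01, -0.08 and -0.23. *Ccnb3*, *Ccne1* and *Ccne2* lie far to the right of these lines and *Ccnb1* to the left on all 3 scales.

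The A cyclins were represented by *Ccna2*. *Ccna1*, the A cyclin of late spermatocytes, spans positions 55045469 to 55055501 of chromosome 3 (GRCm38, minus strand). It had 2 counts in wild-type replicate 2, 2 in *Meioc*-null replicate 1 and 0 in the other 5 libraries. Both groups were thus under the floor of 3 counts in a library, which corresponds to 0.151 to 0.236 CPM, so no fold is given. Its level was not detectable at this depth in either genotype.

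*Ccna2*, the cyclin of S phase and G2, lies on the same chromosome from 36564865 to 36572150. Its level was 44.6, 56.2, 50.1 and 48.5 CPM in wild-type replicates 1 to 4 and at 60.2, 49.7 and 56.6 CPM in *Meioc*-null replicates 1 to 3. The groups overlapped, with *Meioc*-null replicate 2 among the wild-type libraries. The log2 fold change was -0.16 (standard error 0.10, edgeR adjusted p = 0.32), and the interval of 2 standard errors either side ran from -0.36 to 0.05. In TPM the libraries separated, at 30.8 to 36.2 in wild type and 42.4 to 46.0 in the null, and limma on log2(TPM + 1) gave -0.42 (adjusted p = 0.024), where the median of all genes was -0.23. The transcript *Ccna2-201* carried 91.2% of the gene's counts in wild type and 88.3% in the null.

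The B cyclins showed the strongest contrast within a class, with 1 member higher in wild type, 1 lower and 1 not called. RefSeq start-site sequences (GRCm38.p6) were matched by symbol for 6 of the 10 genes, all but *Ccna2*, *Ccnd1*, *Ccnd2* and *Ccne2*. Those of the B cyclins are printed here, from 250 bases before the start to 50 after it. They were chosen because the test gave these 3 paralogues different calls. Capitals mark every match, on either strand, to 5 short motifs chosen after the values were seen: the E2F core (TCCCGC), the E-box (CACGTG), the STRA8 motif (CNCCTCAG), the cell cycle homology region or CHR (TTTGAA) and the CCAAT box (CCAAT). CHR and CCAAT elements are known from promoters of G2 and M phase genes.
Ccnb1, chr13:100786437-100786736, minus strand: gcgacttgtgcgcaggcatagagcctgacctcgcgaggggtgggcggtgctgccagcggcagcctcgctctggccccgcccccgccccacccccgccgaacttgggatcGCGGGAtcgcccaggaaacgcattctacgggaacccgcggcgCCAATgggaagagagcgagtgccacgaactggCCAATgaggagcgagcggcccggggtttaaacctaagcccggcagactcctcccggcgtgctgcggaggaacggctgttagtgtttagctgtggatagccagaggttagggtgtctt
Ccnb2, chr9:70421505-70421804, minus strand: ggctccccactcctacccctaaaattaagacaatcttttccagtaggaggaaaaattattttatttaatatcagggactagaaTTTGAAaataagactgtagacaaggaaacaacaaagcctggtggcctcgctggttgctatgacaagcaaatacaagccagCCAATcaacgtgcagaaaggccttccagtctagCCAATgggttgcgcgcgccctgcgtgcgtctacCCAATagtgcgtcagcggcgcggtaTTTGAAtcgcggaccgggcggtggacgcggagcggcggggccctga
Ccnb3, chrX:7041570-7041869, minus strand: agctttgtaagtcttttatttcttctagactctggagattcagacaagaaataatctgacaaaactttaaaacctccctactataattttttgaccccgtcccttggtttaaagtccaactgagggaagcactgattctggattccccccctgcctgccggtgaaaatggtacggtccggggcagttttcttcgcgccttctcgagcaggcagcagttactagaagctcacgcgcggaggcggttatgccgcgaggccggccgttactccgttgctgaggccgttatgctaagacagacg

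The *Ccnb1* window held 1 E2F core, 141 bases before the start, and CCAAT boxes at 99 and 67 bases before it. The *Ccnb2* window held 3 CCAAT boxes, at 87, 54 and 21 bases before the start, and 2 CHR matches, at 167 bases before the start and 5 bases into the transcript. The *Ccnb3* window held none of the 5 sets of letters. Among 32851 RefSeq windows of the same length, 19.98% held the E2F core, 7.15% the E-box, 7.94% the STRA8 motif, 17.9% the CHR and 37.4% the CCAAT box, and no 2 of the marked matches overlap. A match describes letters only.

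*Ccnb3*, the B cyclin of early meiotic prophase, lies on the X chromosome from 6979652 to 7041619. It was counted at 50.04, 76.8, 81.0 and 78.8 CPM in wild-type replicates 1 to 4 and at 8.36, 14.7 and 11.6 CPM in *Meioc*-null replicates 1 to 3. Wild-type replicate 1 was the lowest of its group and still above every null library by more than the range within the null. The gene was 6.24-fold higher in wild type (log2 fold change 2.64, standard error 0.22, edgeR adjusted p = 0.00082). It was called in all 7 fits that left out 1 library, with log2 fold changes from 2.45 to 2.84. In whole testes, fewer cells that express a gene and less RNA in each such cell cannot be told apart, and the leptotene and zygotene markers given above moved in the same direction.

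The higher *Ccnb3* level was not spread evenly over its 2 listed transcripts. *Ccnb3-202* has 14 exons and starts at position 7041619, the start site within the window printed above. *Ccnb3-201* has 12 exons and starts 10683 bases further into the gene, at position 7030936. Its first exon, from 7030791 to 7030936, is exon 3 of *Ccnb3-202* with 12 more bases at its 5′ end. *Ccnb3-201* was estimated at 286, 472, 318 and 505 counts in wild-type replicates 1 to 4, and at 0, 0 and 25.4 in *Meioc*-null replicates 1 to 3. It made up 26.4% to 45.1% of the gene's counts in each wild-type library and 0%, 0% and 11.8% in the null libraries. *Ccnb3-202* was estimated at 349, 630, 884 and 1061 counts in wild type and at 157, 204 and 189 in the null. With *Ccnb3-202* alone standing for the gene, the log2 fold change was 2.07, and it was still called. The division between the transcripts rests on few reads, since only 12 of the 4445 words of 31 bases (the length kallisto matches) in *Ccnb3-201* and 91 of the 4524 in *Ccnb3-202* are absent from the other.

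*Ccnb1*, the main partner of CDK1 at mitotic entry, lies on chromosome 13 from 100778650 to 100786570. It was counted at 12.8, 11.8, 12.5 and 12.3 CPM in wild-type replicates 1 to 4 and at 17.4, 19.1 and 19.7 CPM in *Meioc*-null replicates 1 to 3. Every null library was above every wild-type library, and the wild-type libraries spanned 1 CPM. The gene was 1.51-fold higher in the null (log2 fold change -0.60, standard error 0.10, edgeR adjusted p = 0.013), and without *Meioc*-null replicate 3 the adjusted p was 0.061 at a log2 fold change of -0.56. The value is uncertain for another reason. Of the 31-base words in the *Ccnb1* transcripts, 45.9% also occur in annotated pseudogenes, with 39.3% in *Ccnb1-ps*, 30.99% in *Gm12856* and 28.4% in *Gm8416*. kallisto divides reads that match several transcripts by estimation, and the part of such reads in the *Ccnb1* difference was not tested.

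*Ccnb2*, the other mitotic B cyclin, lies on chromosome 9 from 70407692 to 70421547. Its transcripts stood at 12.0, 11.5, 9.83 and 10.3 CPM in wild-type replicates 1 to 4 and at 11.5, 10.98 and 13.2 CPM in *Meioc*-null replicates 1 to 3. The groups overlapped, with wild-type replicates 1 and 2 among the null libraries. The log2 fold change was -0.13 (standard error 0.13, edgeR adjusted p = 0.52), and 2 standard errors either side ran from -0.39 to 0.13. The estimate for *Ccnb1* lies outside that interval, but its own interval, from -0.80 to -0.39, reached the edge of it. The difference between the 2 genes was not tested.

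The ratio of *Ccnb3* to *Ccnb1* within a library, which no scaling between libraries can change, is given as a description. Per transcript length (TPM), *Ccnb3* stood at 2.61, 4.01, 4.25 and 4.18 times *Ccnb1* in wild-type replicates 1 to 4 and at 0.319, 0.520 and 0.391 times *Ccnb1* in *Meioc*-null replicates 1 to 3. The mean log2 ratio was 1.88 ± 0.34 (SD, n = 4) in wild type and -1.32 ± 0.35 (SD, n = 3) in the null. The groups had to separate on it, since they did not overlap for either gene and the 2 genes lay in opposite directions, so no test is given. With *Ccna1* under the floor, its ratio to *Ccna2* is not given.

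The D cyclins, which couple growth signals to G1, were not called for any member. *Ccnd1*, on chromosome 7 from 144929931 to 144939925, was counted at 86.0, 68.2, 48.0 and 48.2 CPM in wild-type replicates 1 to 4 and at 77.9, 58.9 and 69.3 CPM in *Meioc*-null replicates 1 to 3. Its spread within wild type was wider than the difference between the groups (log2 fold change -0.14, standard error 0.20, edgeR adjusted p = 0.67), and 2 standard errors either side ran from -0.54 to 0.26. *Ccnd1* is also made by somatic cells, and its level here is that of the whole testis.

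*Ccnd2*, the D cyclin of spermatogonia that begin to differentiate, lies on chromosome 6 from 127125162 to 127152193. Its level was 53.6, 76.5, 69.5 and 68.5 CPM in wild-type replicates 1 to 4 and at 75.2, 78.7 and 72.8 CPM in *Meioc*-null replicates 1 to 3. Wild-type replicate 2 lay inside the null range and wild-type replicate 1 was the lowest. The log2 fold change was -0.17 (standard error 0.11, edgeR adjusted p = 0.33), with 2 standard errors either side from -0.40 to 0.05, and -0.42 in limma on log2(TPM + 1) (adjusted p = 0.043).

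*Ccnd3*, the third D cyclin, lies on chromosome 17 from 47505051 to 47599691 on the plus strand. Its transcripts stood at 26.6, 28.4, 28.5 and 26.6 CPM in wild-type replicates 1 to 4 and at 32.3, 31.1 and 34.4 CPM in *Meioc*-null replicates 1 to 3. Every null library was above every wild-type library, but the difference was small and missed the threshold (log2 fold change -0.25, standard error 0.085, edgeR adjusted p = 0.088). It passed with no scaling beyond library size (-0.32, adjusted p = 0.040) and in limma on log2(TPM + 1) (-0.44, adjusted p = 0.029). Its 6 listed transcripts were divided unevenly between libraries. The most abundant of them over all libraries together took from 17.3% to 60.5% of the gene's counts in wild type and from 6.09% to 60.1% in the null. With that transcript alone standing for the gene, the log2 fold change was -0.01 (standard error 0.63), too uncertain to tell a difference from none. Of the gene's 31-base words, 11.8% also occur in the pseudogene *Ccnd3-ps*.

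Both E cyclins, the partners of CDK2 at the start of S phase, were higher in wild type. The *Ccne1* start-site window is printed because the gene was called.
Ccne1, chr7:38107441-38107740, minus strand: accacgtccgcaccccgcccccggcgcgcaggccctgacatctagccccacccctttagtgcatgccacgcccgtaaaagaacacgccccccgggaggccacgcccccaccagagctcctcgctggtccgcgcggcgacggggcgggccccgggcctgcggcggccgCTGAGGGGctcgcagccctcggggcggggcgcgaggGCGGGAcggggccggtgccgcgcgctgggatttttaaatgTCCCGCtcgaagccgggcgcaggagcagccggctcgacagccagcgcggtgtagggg
It held 2 E2F cores, at 47 and 7 bases before the start, and 1 STRA8 motif, at 83 bases before it, but no E-box, CHR or CCAAT box. Some E2F factors are known activators of E cyclin genes at the G1/S transition. The study treats E2F6, which shares a binding site with other E2F proteins, as a repressor. Whether any E2F factor acts on this window was not tested.

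*Ccne2*, on chromosome 4 from 11191351 to 11204779, was counted at 296, 538, 540.4 and 582 CPM in wild-type replicates 1 to 4 and at 241, 129.8 and 220.3 CPM in *Meioc*-null replicates 1 to 3. The groups did not overlap, although wild-type replicate 1 lay nearer to *Meioc*-null replicate 1 than to any other wild-type library. The gene was 2.48-fold higher in wild type (log2 fold change 1.31, standard error 0.26, edgeR adjusted p = 0.018). The transcript *Ccne2-207* carried 96.2% of its counts in wild type and 96.3% in the null.

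*Ccne1*, on chromosome 7 from 38097984 to 38107534, was counted at 12.1, 16.7, 17.6 and 20.9 CPM in wild-type replicates 1 to 4 and at 10.3, 6.79 and 6.73 CPM in *Meioc*-null replicates 1 to 3. The groups did not overlap, and wild-type replicate 1 and *Meioc*-null replicate 1 were again the nearest pair. The gene was 2.12-fold higher in wild type (log2 fold change 1.08, standard error 0.22, edgeR adjusted p = 0.018). Both E cyclin calls were lost without wild-type replicate 2, wild-type replicate 3, *Meioc*-null replicate 2 or *Meioc*-null replicate 3, with edgeR adjusted p from 0.053 to 0.074 for *Ccne1* and from 0.054 to 0.068 for *Ccne2*, while the log2 fold changes stayed between 0.97 and 1.09 and between 1.08 and 1.40. Without wild-type replicate 1 they were 1.21 and 1.49, and both were called.

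**Figure D3:**
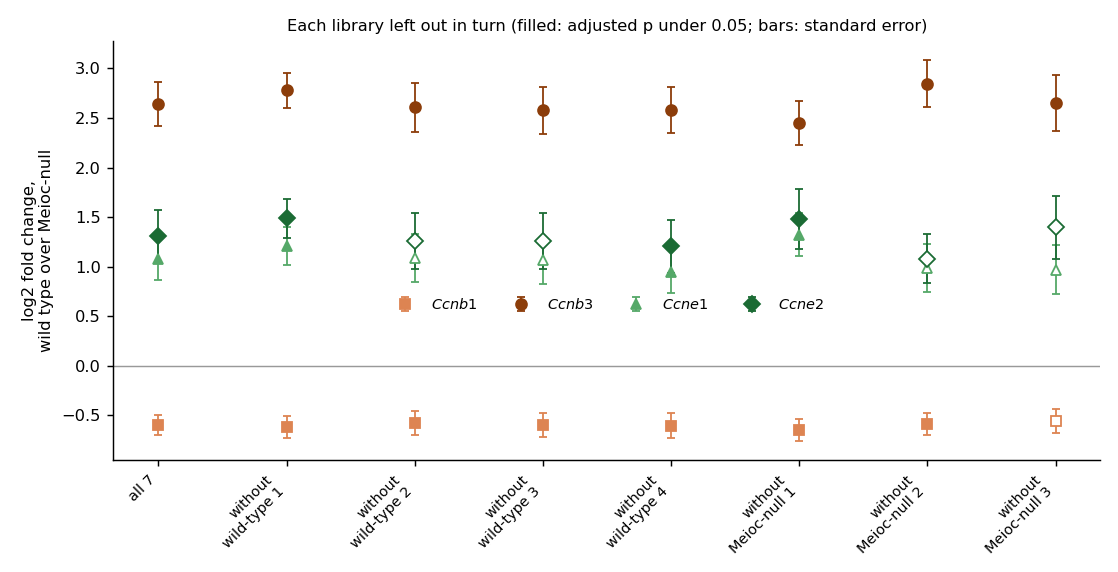
Log2 fold change (wild type over *Meioc*-null, vertical axis, bars for the standard error) of the 4 called cyclins with all 7 libraries and with each library left out in turn (horizontal axis), with filled symbols for an adjusted p under 0.05 in edgeR. *Ccnb3* stays between 2.45 and 2.84 and filled throughout, *Ccnb1* loses its call without *Meioc*-null replicate 3, and *Ccne1* and *Ccne2* each lose it in 4 of the 7 fits with little change in size.

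Per transcript length, E cyclins made up most of the RNA of the 10 listed cyclins in both genotypes. The summed level of the E class was 306, 467, 489 and 532 TPM in wild-type replicates 1 to 4 and 263, 163 and 238 TPM in *Meioc*-null replicates 1 to 3, and *Ccne2* held 96.2% to 97.8% of it in every library. The E class made up 75.3% ± 5.06 (SD, n = 4) of the TPM of the 10 genes in wild type and 58.5% ± 6.96 (SD, n = 3) in the null. The B class summed to 59.0 ± 3.02 TPM in wild type and 41.4 ± 4.69 TPM in the null. Within it, *Ccnb3* held 60.4% ± 6.66 (SD, n = 4) of B cyclin TPM in wild type and 16.6% ± 4.01 (SD, n = 3) in the null. *Ccnb2* held 23.3% ± 4.68 and 42.5% ± 3.58, and *Ccnb1* 16.3% ± 2.04 and 40.9% ± 0.78, so *Ccnb2* and *Ccnb1* held similar shares in the null. The A class stood at 32.9 ± 2.43 TPM in wild type and 44.2 ± 1.85 TPM in the null, and the D class at 50.3 ± 6.29 and 67.4 ± 1.90 TPM, on a scale where most genes stood lower in wild type. In TPM, 5 of the 9 tested cyclins had every wild-type library below every null library, where 28.4% of all tested genes did, and 3 had every one above, where 4.93% did. These class levels are given as a description, with no test.

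**Figure D4:**
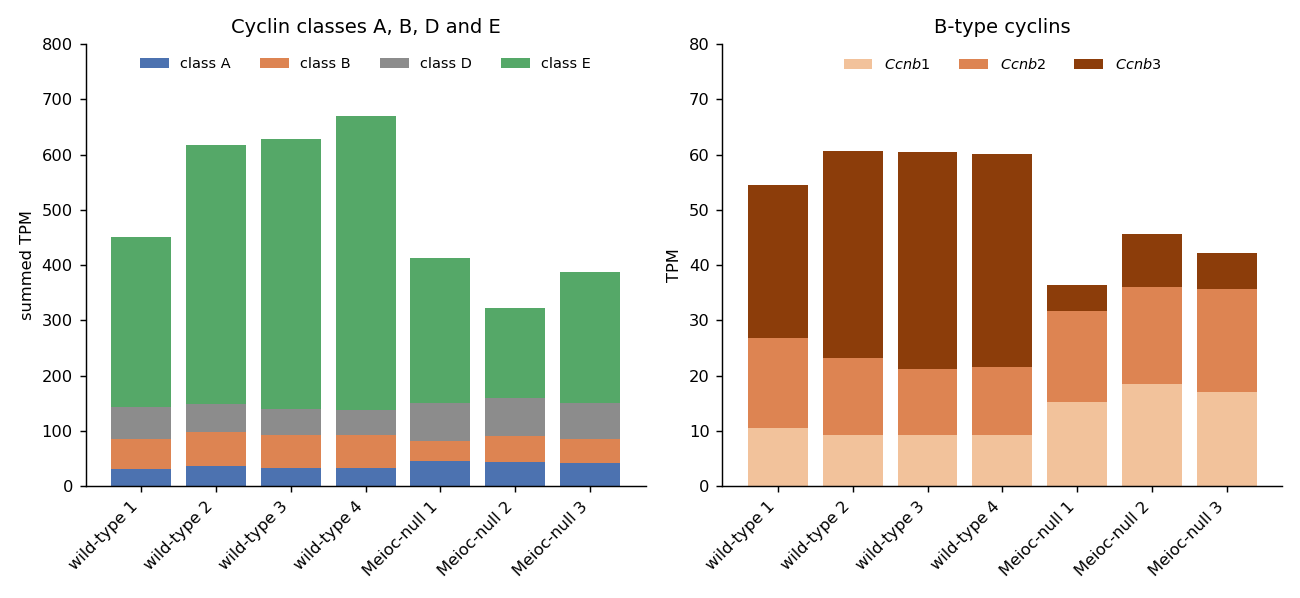
Stacked bars of TPM (linear axis from 0) in each of the 7 libraries, for the summed A, B, D and E cyclins on the left and for *Ccnb1*, *Ccnb2* and *Ccnb3* on the right. E cyclins form the tallest block in every library, and *Ccnb3* holds 50.6% to 65.1% of B cyclin TPM in wild-type libraries and 13.2% to 21.0% in *Meioc*-null libraries.

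The order of the mean TPM levels in wild type was *Ccne2* (437), *Ccnb3* (35.8), *Ccna2* (32.9), *Ccnd1* (19.7), *Ccnd3* (17.0), *Ccnb2* (13.7), *Ccnd2* (13.6), *Ccne1* (12.0), *Ccnb1* (9.54) and *Ccna1* (0.035). Neighbours overlapped in their libraries except at 3 steps, from *Ccne2* to *Ccnb3*, from *Ccna2* to *Ccnd1* and from *Ccnb1* to *Ccna1*. In the null the order was *Ccne2* (215), *Ccna2* (44.2), *Ccnd1* (25.3), *Ccnd3* (23.4), *Ccnd2* (18.7), *Ccnb2* (17.5), *Ccnb1* (16.9), *Ccnb3* (6.99), *Ccne1* (6.69) and *Ccna1* (0.043). There the steps without overlap were those below *Ccne2*, *Ccna2*, *Ccnd3*, *Ccnb1* and *Ccne1*. *Ccnb3* moved from rank 2 in wild type to rank 8 in the null.

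The genes whose pattern over the 7 libraries was most like that of *Ccnb3* were sought among the other 13629 tested genes, by the root mean square difference of log2 CPM centred on each gene's mean. They were *Lypd4* (difference 0.21), *Spata22* (0.22), a factor of meiotic recombination, and *Mgat5b* (0.33), with fitted log2 fold changes of 2.99, 3.07 and 2.22. Fold changes near that of *Ccnb3* follow from this choice by pattern. In the null, *Lypd4* averaged only 0.54 CPM, *Spata22* 3.63 CPM and *Mgat5b* 1.69 CPM, against 4.25, 30.05 and 7.80 CPM in wild type. No gene came within 0.2 of *Ccnb3*. *Ccne2* was its nearest cyclin, at rank 137, with a difference of 0.80. For *Ccna2* the 3 nearest were *Trmt2b* (0.037), *Timm8a1* (0.040) and *Bok* (0.040), and 139 genes lay within 0.1, as is usual for a gene that varies little. *Ccnd3* was the nearest cyclin to *Ccna2*, at rank 145, with a difference of 0.10.

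The kinases and regulators of these cyclins were called about as often as all genes. Of 28 listed genes, all 28 were tested: 3 were called higher in wild type, 0 lower and 25 were not called by edgeR, where 7.77% of all tested genes were higher and 3.33% lower. Among the 28, 6 had an unadjusted p under 0.05, and the median log2 fold change was 0.00. Over all tested genes, 30.3% had an unadjusted p under 0.05. DESeq2 called 4 of the listed genes higher and 1 lower, where it called 10.7% of all genes higher and 6.42% lower. None of the 4 kinases was called: the log2 fold change was 0.12 (standard error 0.13) for *Cdk1*, 0.14 (0.094) for *Cdk2*, -0.05 (0.084) for *Cdk4* and -0.22 (0.15) for *Cdk6*, with edgeR adjusted p from 0.34 to 0.73. In limma on log2(TPM + 1), *Cdk1* and *Cdk2* turned to -0.11 and -0.10, where the median of all genes was -0.23. *Cdk4* overlapped between the groups in CPM but separated in TPM, at 77.1 to 82.8 in wild type and 98.9 to 108.0 in the null. It passed the threshold in limma on TPM (log2 fold change down to -0.37, adjusted p down to 0.023).

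*Spdya*, which encodes an activator of CDK2 that is not a cyclin and is needed at meiotic telomeres, rose most of the list in wild type. It was counted at 13.5, 25.5, 31.1 and 40.1 CPM in wild-type replicates 1 to 4 and at 10.01, 8.31 and 9.38 CPM in *Meioc*-null replicates 1 to 3. The log2 fold change was 1.58 (standard error 0.31, edgeR adjusted p = 0.018), with an adjusted p of 0.054 to 0.071 without wild-type replicate 3, *Meioc*-null replicate 2 or *Meioc*-null replicate 3. *Fbxo5*, which encodes the inhibitor EMI1 of the ubiquitin ligase that destroys A and B cyclins, was counted at 14.2, 28.6, 30.8 and 30.04 CPM in wild type and at 13.9, 11.5 and 14.0 CPM in the null. Wild-type replicate 1 lay at the level of the null libraries, and the difference (log2 fold change 0.98, standard error 0.24, edgeR adjusted p = 0.033) was called in only 1 of the 7 fits that left out a library, that without wild-type replicate 1. *Fbxw7*, the F-box protein that targets cyclin E, was at the threshold (log2 fold change 0.27, standard error 0.076, edgeR adjusted p = 0.0499). It lost its call with RLE scaling (adjusted p = 0.058) and in 6 of the 7 fits that left out a library, and stood at -0.00010 in limma on log2(TPM + 1).

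Of 21 other genes of the cyclin superfamily, 19 were found in the tables and tested, and 1 was called higher in wild type and 1 lower, again near the 7.77% and 3.33% of all tested genes, with a median log2 fold change of -0.11. *Cntd1*, a cyclin-like gene needed for crossover formation in meiosis, was counted at 10.7, 18.5, 15.9 and 15.6 CPM in wild-type replicates 1 to 4 and at 6.44, 4.98 and 4.99 CPM in *Meioc*-null replicates 1 to 3. The groups did not overlap, and the difference was called (log2 fold change 1.47, standard error 0.20, edgeR adjusted p = 0.0064), as it was in all 16 alternatives. *Ccnt1*, which pairs with CDK9 in transcription elongation, was counted at 100.2, 109.7, 104.9 and 96.4 CPM in wild type and at 116, 130.5 and 135 CPM in the null. Its log2 fold change was -0.31 (standard error 0.084, edgeR adjusted p = 0.046), and leaving out any 1 library other than *Meioc*-null replicate 1 raised the adjusted p to between 0.059 and 0.14.

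**Figure D5:**
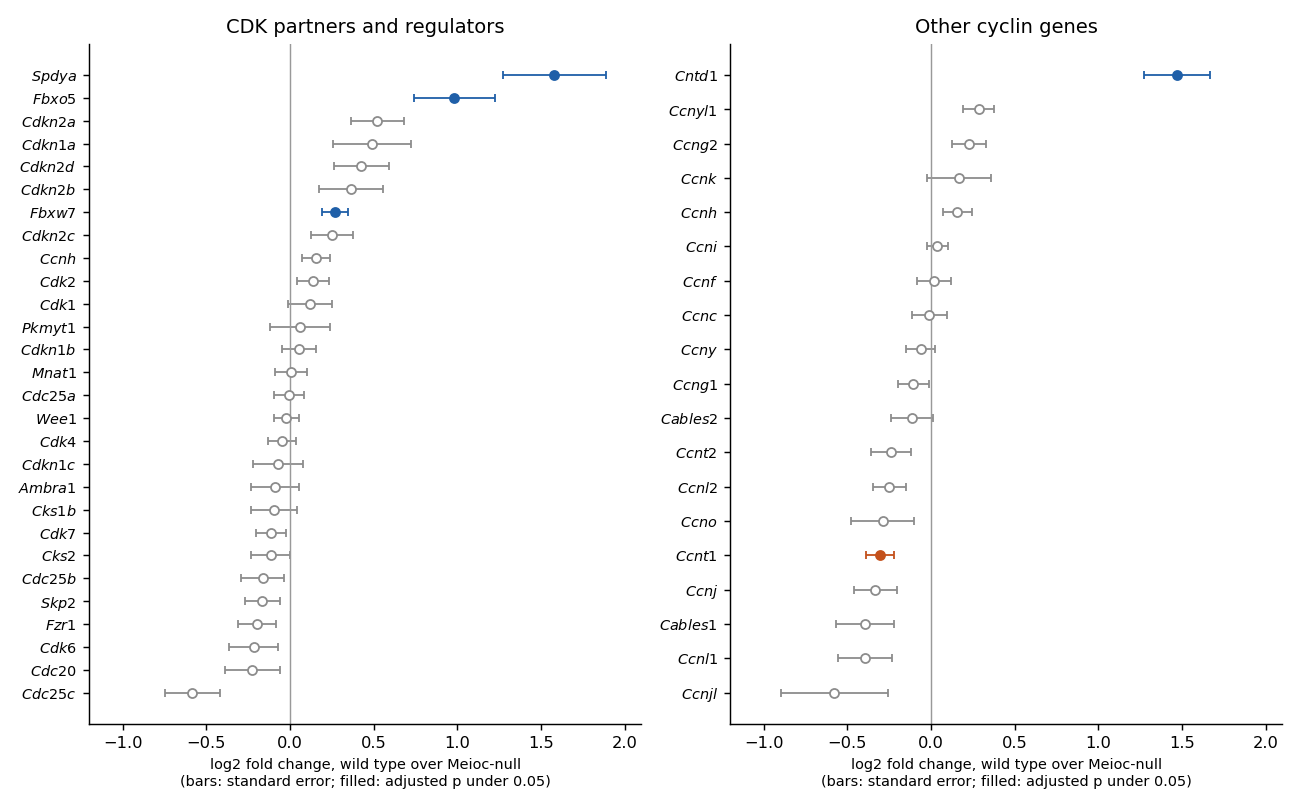
Log2 fold change (wild type over *Meioc*-null, horizontal axis, bars for the standard error) of the 28 CDK partners and regulators on the left and the 19 tested other cyclin genes on the right, ordered by value, with filled symbols for an edgeR adjusted p under 0.05. *Spdya*, *Fbxo5*, *Fbxw7* and *Cntd1* are filled on the right of 0 and *Ccnt1* on the left, and the other genes are open. *Ccnh* is in both lists.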

How the data were processed

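RNA from 4 wild-type and 3 *Meioc*-null pups was depleted of ribosomal RNA and sequenced as stranded single-end libraries. Per the study's methods and the submitters' processing notes, the authors trimmed reads with cutadapt 1.8 and quantified them with kallisto 0.44.0 on GENCODE Basic transcripts with bias correction. The deposited tables hold an estimated count for each protein-coding transcript, with no normalization between libraries, and a TPM that the authors renormalized over those transcripts. The TPM of a library adds up to a fixed sum and carries no depth, so a rise of short abundant transcripts lowers all others. Reads that match several transcripts were divided between them by estimation.

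Transcripts were matched by Ensembl identifier to GENCODE vM21 (GRCm38). Of 43139 transcripts, 119 were not matched and were left out, with 0.247% to 0.282% of the counts of a library. Counts and TPM were summed by gene and counts rounded. The fit used TMM and the quasi-likelihood test of edgeR 4.0.16 (R 4.3.3) without covariates on the 13630 genes that reached 1 TPM in 3 or more of the 7 libraries, with Benjamini-Hochberg adjustment, and the standard error was derived from the F statistic. The ratio of paralogues used log2 TPM with a pseudocount of 0.1. Its planned permutation test was left out, since the 2 genes' own values fixed its outcome. The script was tested on simulated data. Depth was 12537852 to 20552702 counts per library, and 3 counts correspond to 0.151 to 0.236 CPM. Floors cover counting error only, since copies made by PCR were not removed.

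Samples were grouped by the genotype in their labels. No 2 libraries agreed within counting noise, so 7 samples were used. The 10 cyclins, the partner and cyclin lists and the markers were chosen with earlier results of these data known. Genes named are the 10 cyclins, all called genes of both lists with *Cdk1*, *Cdk2*, *Cdk4* and *Cdk6*, the 3 genes nearest to *Ccna2* and to *Ccnb3*, *Meioc*, and *Prm1* as an absent marker. The markers *Zbtb16*, *Kit*, *Stra8* and *Gata4* and pseudogenes that share words with *Ccnb1* or *Ccnd3* are also named, and were chosen after values were seen. Start-site sequences are RefSeq's on GRCm38.p6. The alternatives were DESeq2 1.42.0 on filtered or all genes, RLE scaling, no scaling, limma 3.58.1 on log2(TPM + 1) and log2(TPM + 0.1), no filter, filterByExpr, each library left out, a replicate block, the most abundant transcript of each cyclin, and other pseudocounts for the ratios. *Cntd2* and *Fam58b* were not analysed here.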

Additional observations from a re-analysis of the deposited data

Results flagged for a closer look

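In 3 of 10 sets of 4 wild-type values tested, wild-type replicate 1 lay apart from the other 3 libraries by Dixon's criterion at the 95% level, which chance meets in about 1 of 20 groups. *Ccnb3* stood at 50.04 CPM in wild-type replicate 1 and at 76.8 to 81.0 CPM in the others. *Ccne2* stood at 296 CPM there and at 538 to 582 CPM in the others. The log2 ratio of *Ccnb3* to *Ccnb1* was 1.38 there and 2.00 to 2.09 in the others. The 3 values come from the same library, and 2 of them share *Ccnb3*, so they are not separate signs. In each case the value of wild-type replicate 1 lay on the side of the *Meioc*-null libraries and outside their range. Without this library the log2 fold changes of *Ccnb3* and *Ccne2* were 2.78 and 1.49, against 2.64 and 1.31 with it.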

How the results depend on the processing

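*Ccnb3* kept its direction and its call under all 17 alternatives (log2 fold change 2.07 to 2.84), and *Ccnb2* and *Ccnd1* stayed uncalled in all 17. In limma on log2(TPM + 1) and log2(TPM + 0.1), 3 uncalled cyclins passed the threshold: *Ccna2* at -0.42 and -0.43, *Ccnd2* at -0.42 and -0.45, and *Ccnd3* at -0.44 and -0.46. *Ccnd3* also passed with no scaling, at -0.32. The cyclins called lower were then 4, 4 and 2 in place of 1. On the 2 TPM scales *Cdk1* stood at -0.11 and -0.11, *Cdk2* at -0.10 and -0.10, and *Fbxw7* at -0.0001044 and -5.25e-05, where the median of all genes was -0.23 and -0.25. Called partners, of 28 tested, numbered 1 higher and 3 lower on both, and other cyclins called lower, of 19 tested, numbered 4 on both. On log2(TPM + 1), 3.23% of all genes were called higher and 15.3% lower. Partners called lower, of 28 tested, numbered 1 with DESeq2 on filtered or on all genes, with RLE and with no scaling. Of all genes, 6.42% were called lower with DESeq2 on filtered genes and 6.6% with no scaling. Other cyclins called lower, of 19 tested, numbered 0 with no filter. Where no share of all genes is given, these counts do not show a change particular to the lists.

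Over all genes, calls higher in wild type numbered 1059, and 440 and 443 on the 2 TPM scales. Calls lower numbered 454, and 875 and 764 with DESeq2 on filtered and on all genes, 899 with no scaling, and 2082 and 2063 on the TPM scales. Leaving out each library gave 113 to 1440 calls higher (113 without *Meioc*-null replicate 3, and at most 430 without any 1 of *Meioc*-null replicate 2 and wild-type replicates 2, 3 and 4) and 18 to 837 lower. The same fits gave 1 to 3 cyclins higher and 0 to 1 lower, 0 to 4 partners higher and 0 to 2 lower, and 0 to 4 other cyclins lower. The log2 fold change ranged from -0.65 to -0.56 for *Ccnb1*, 0.95 to 1.32 for *Ccne1*, 1.08 to 1.49 for *Ccne2*, -0.10 to 0.024 for *Cdk4* and -0.33 to 0.015 for *Cdk6*, where the last 2 turned without *Meioc*-null replicates 1 and 2. *Ccna1*, under the floor in both groups, was given no fold in any fit. The cause of these changes was not tested.

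The labels do not say that replicate numbers pair the samples. Deviations from the group means correlated at -0.012, -0.089 and -0.17 between same-numbered libraries and at -0.083 to 0.17 between the others. With so few libraries, these values cannot settle whether samples were paired. In a fit with a replicate block, wild-type replicate 4 has no null library of its number and adds nothing to the contrast. That fit thus has less power than the main one. With the replicate block, 94 genes were called higher and 15 lower. *Ccnb3* kept its call. *Ccnb1* (-0.59), *Ccne1* (0.97) and *Ccne2* (1.21) lost theirs, which left 1 cyclin higher and 0 lower, 0 partners higher and 0 other cyclins lower. Depth limits *Ccna1*, which no library held above 2 counts.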
